A study of Mus musculus with 13 samples.

Results

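Macrophages of a peripheral nerve and of a central nerve tract were set side by side by bulk RNA sequencing of 4 mouse sciatic nerve libraries and 4 mouse optic nerve libraries. These 8 of the 13 libraries at hand were chosen by tissue label, every gene of the count table was considered, and the other 5, from brain, entered no fit. All 8 samples were total RNA of the C57BL/6J strain, and no treatment, injury or transgene is named for any of them. The sources used here do not give age, sex, the animals behind a sample or how cells were isolated. The comparison asks which genes separate macrophages of the peripheral nervous system from those of the central nervous system where both surround axons. Since no label ties a replicate to its own animal, the p-values measure the spread between these samples, which may be technical.

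The sciatic nerve lies outside the brain and spinal cord, its axons are ensheathed by Schwann cells, and its resident macrophages live in the endoneurium and in the surrounding connective tissue. The optic nerve is a tract of the central nervous system, ensheathed by oligodendrocytes and populated by microglia, with other macrophages along its vessels and meninges. Microglia are known for a gene set that depends on TGF-beta signals and on the transcription factor Sall1, and for surface proteins such as P2ry12 and Tmem119. Macrophages at the borders of the brain and in many peripheral tissues are known instead for scavenger and lectin receptors such as Mrc1, Cd163 and Cd209, and for MHC class II molecules, which show peptides to CD4 T cells.

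Libraries held 15.7 to 20.4 M counts and 15543 to 18316 genes with at least 1 count, and levels are given as CPM, counts relative to a common library size after TMM scaling. Sciatic nerve always stands before optic nerve, 4 values stand in the order of replicates 1 to 4, and ± is the SD over 4 libraries. The log2 ratio is the fitted log2 fold change of sciatic over optic nerve, with its SE. Across genes, which are not independent replicates, log2 CPM correlated at 0.917 to 0.950 between sciatic nerve libraries, 0.925 to 0.940 between optic nerve libraries and 0.777 to 0.797 between the nerves. The first principal component held 61.4% of the variance and separated the nerves. Sciatic nerve replicate 4 stood apart on the second component (9.04% of the variance), at -71.3 against 18.3 to 30.9 for the other 3, and it had the most genes detected (18316). Mitochondrially encoded genes took 0.447% to 1.23% of counts. No counts in all 4 libraries of a nerve leave room for at most 0.0461 CPM (sciatic) or 0.0377 CPM (optic), which is 3 counts over the nerve and covers counting error only.

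The nerves differed in a large share of the genes, in both directions and to a similar extent. In sciatic nerve the antigen presentation gene Cd74, the lysozyme gene Lyz2, the secreted protein gene Retnla and the Cd209 lectin genes stood out on the high side. The protease inhibitor gene Cst3, the protease gene Ctss and the microglial genes Sparc and Tmem119 stood far lower than in optic nerve. Of 12025 genes tested, sciatic nerve had 1754 higher and 1702 lower at an adjusted p under 0.05 (edgeR quasi-likelihood test, Benjamini-Hochberg adjusted), and these genes are named called below. That is 28.7% of the genes tested, 14.6% higher and 14.2% lower, and these shares are the background for every list that follows. The lists were written with earlier results of these data known, so their counts describe the listed genes and are not a test. At least 2-fold apart were 1182 called genes on the high side (9.83%) and 993 on the low side (8.26%), at least 8-fold 477 and 327, and at least 32-fold 190 and 156. Scaling to total counts alone moved the split to 1409 higher and 2304 lower, with a shift of -0.16 in the median log2 fold change, and without sciatic nerve replicate 4 it was 1559 and 1608. The share of called genes was 2.94% below 1 CPM in the higher nerve, 14.1% from 1 to 10 CPM, 30.6% from 10 to 100 CPM, 55.8% from 100 to 1000 CPM and 72.3% above 1000 CPM.

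**Figure D1:**
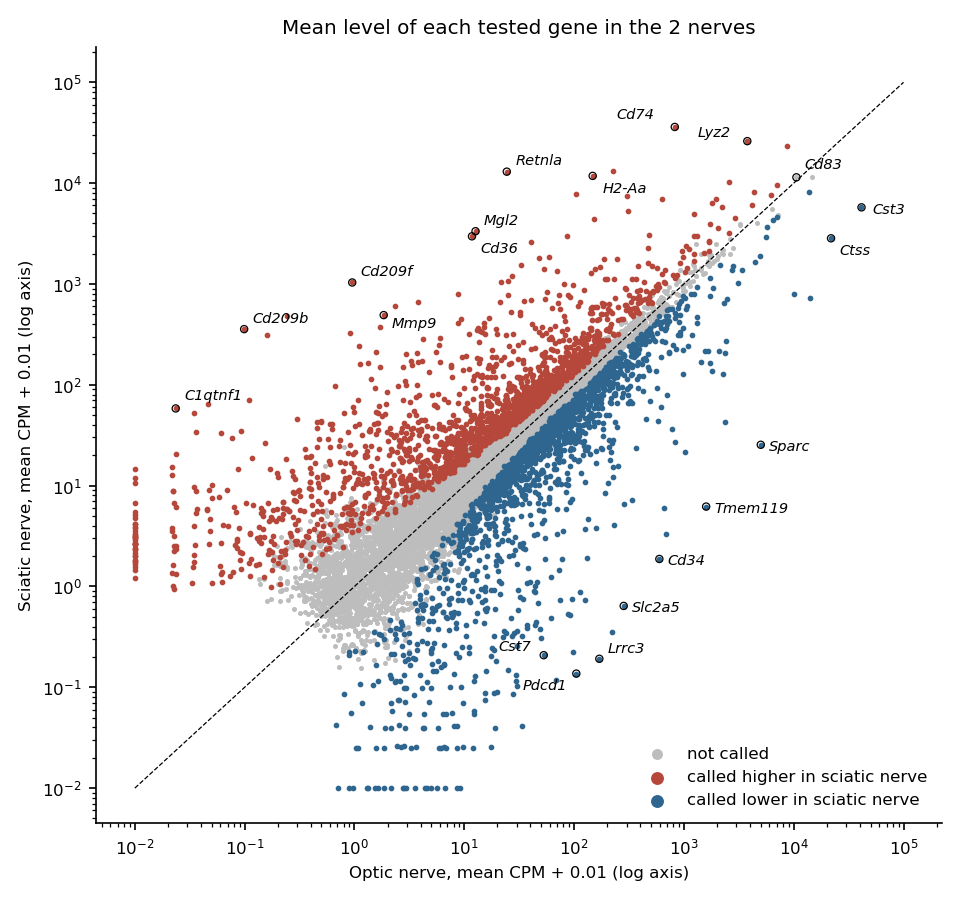
Mean CPM + 0.01 of each of the 12025 tested genes in optic nerve (x, log axis) and sciatic nerve (y, log axis), coloured by call, with the dashed line of equal levels. The 1754 genes called higher and 1702 called lower lie on both sides of the line over the whole range of levels, with Cd209b far above it and Lrrc3 and Pdcd1 far below it.

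Among abundant genes, Cd74 measured 40072, 40709, 28972 and 34508 against 728, 773, 865 and 936 CPM, so that every sciatic nerve library was far above every optic nerve library (log2 ratio 5.45, SE 0.16, adjusted p = 2.40e-09 by edgeR (quasi-likelihood, Benjamini-Hochberg)). Cst3, which encodes the secreted protease inhibitor cystatin C, went the other way, at 5765, 5885, 4817 and 6534 against 42844, 38484, 49997 and 34256 CPM (log2 ratio -2.85, SE 0.15). Lyz2, apolipoprotein gene Apoe and selenoprotein gene Sepp1 were also higher in sciatic nerve, by 2.79, 1.42 and 1.98 on the log2 scale. The interleukin gene Il1a, the tetraspanin gene Cd81 and the protease gene Lgmn were lower, at -1.40, -1.42 and -1.30. Per kilobase of exon, which allows levels of different genes to be compared, Retnla reached 21694, Cd74 21480.3 and Lyz2 19824 CPM per kb in sciatic nerve, and Cst3 32698 and Ctss 16100.1 CPM per kb in optic nerve. In the same unit Retnla stood at 40.7 in optic nerve and Ctss at 2088 in sciatic nerve.

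Both nerves carried the genes that define macrophages, as the labels say. Of 20 genes of the macrophage core list, 3 were higher and 10 lower in sciatic nerve (28.7% of all genes were called), 7 were not called, and the median log2 fold change was -0.45, against -0.01 over all genes tested. The pan-leukocyte phosphatase gene Ptprc measured 371, 433, 552 and 479 against 507, 511, 458 and 464 CPM, and the libraries of the nerves overlapped (95% interval of the log2 fold change -0.37 to 0.21). Fcer1g, the shared signalling chain of Fc receptors, Cd53 and Lamp1 also had intervals within 0.5 of 0 on the log2 scale, the margin used here to call levels alike, which 7.54% of all genes met. Lyz2 measured 26664, 25963, 22408 and 29319 against 4024, 3109.7, 3955 and 4018 CPM (log2 ratio 2.79, SE 0.13). Adgre1, which encodes the macrophage antigen F4/80, measured 1268, 1431, 1823 and 1519 against 344, 421, 369.7 and 376 CPM (log2 ratio 2.00, SE 0.13). Both were higher in every sciatic nerve library. The lipopolysaccharide co-receptor gene Cd14 was higher as well (0.91). Itgam, a chain of complement receptor CR3, was lower, at 198, 186, 262 and 201 against 722, 726, 659 and 836 CPM. Also lower were the apoptotic cell receptor gene Mertk (50.1 ± 9.87 against 156 ± 5.97 CPM) and the calcium-binding protein gene Aif1, a common stain for microglia (364 ± 49.7 against 978 ± 153 CPM). The receptor gene Csf1r, whose ligands sustain macrophages, was slightly lower (log2 ratio -0.59, SE 0.14), and the transcription factor gene Spi1 was not called (316 ± 37.04 against 391 ± 43.2 CPM).

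Markers of other cells were mostly rare but were not even between the nerves. The summed level of 9 fibroblast markers was 177 to 375 CPM in sciatic nerve and 12.4 to 38.7 CPM in optic nerve. All 6 tested members were higher (14.6% of all genes were higher). Members near 0 in optic nerve could enter the test only through sciatic nerve, so this count is a description and not a test. Most of the sum came from the actin-severing gene Gsn (189 ± 42.1 against 23.1 ± 9.90 CPM) and the proteoglycan gene Dcn (75.04, 20.7, 13.2 and 9.0 CPM against 0, 0.0496, 0 and 0.217 CPM). Of the monocyte list, the sum of 354 to 509 against 7.90 to 21.7 CPM was almost all Ccr2 in sciatic nerve, and Ccr2 was 5.34 to 13.2 CPM of it in optic nerve. Of the 4 tested genes of this list, 2 were higher and 2 not called (14.6% of all genes were higher), with log2 fold changes from 1.53 to 5.56. Among those too low to test, Ly6c2 stood at 0.0631 against 0.718 CPM and Chil3, Cd177 and Ace had 0 counts in all 8 libraries. In the neutrophil list S100a8, S100a9, Ly6g, Mpo, Elane, Ltf and Mmp8 had 0 counts in all libraries, and the sum was 1.35 to 2.07 against 0.298 to 0.616 CPM. Of the lymphoid list Cd3e, Cd8a and Ncr1 had 0 counts, and the sum was 6.30 to 15.1 CPM in sciatic nerve, mostly Cd4, and 0.0932 to 5.37 CPM in optic nerve. The dendritic list summed to 546 to 692 against 1411 to 1827 CPM, mostly Cd209a and Siglech in sciatic nerve and Siglech in optic nerve, and Zbtb46, a defining factor of dendritic cells, measured 17.9 against 11.7 CPM. Siglech is also on the microglia identity list below and Cd209a on the border macrophage list, so this sum is no measure of dendritic cells.

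Markers of glia were uneven as well. The Schwann cell list summed to 978 to 1113 against 568 to 780 CPM, most of it Pmp22. Of its 4 tested genes 2 were higher and 1 lower (28.7% of all genes were called), with a median of -0.16. Sox10, Prx, Ngfr and Cdh19 were too low to test. The oligodendrocyte list summed to 151 to 213 CPM in sciatic nerve and 245 to 306 CPM in optic nerve. Of its 6 tested genes 3 were lower and 3 not called (14.2% of all genes were lower), with log2 fold changes from -5.72 to 1.94. The lower ones were the myelin genes Mbp, Mag and Mobp (log2 ratios -1.11, -2.06 and -5.72), and Olig1 and Olig2 had 0 counts in all libraries. Of the astrocyte list (20.6 to 85.4 against 81.6 to 100.2 CPM), 2 of 6 tested genes were lower and 2 higher (28.7% of all genes were called). On the low side, Slc1a3, a glutamate transporter gene, measured 1.29, 0.252, 0.130 and 1.19 against 56.8, 72.6, 90.6 and 80.5 CPM, and the filament gene Gfap 0.0147 against 5.86 CPM. On the high side, the gap junction gene Gja1 measured 16.5, 26.8, 75.5 and 16.2 against 6.85, 0.0496, 0 and 0.923 CPM (log2 ratio 4.09, SE 1.14) and the aldolase gene Aldoc 3.99 against 0.759 CPM (log2 ratio 2.38, SE 0.75). Adjusted p by edgeR rose to 0.0781 for Gja1 without sciatic nerve replicate 3. For Aldoc it rose to 0.0949 and 0.0908 without sciatic nerve replicates 1 and 3, to 0.0827 and 0.0718 without optic nerve replicates 2 and 4, and to 0.0718 with the replicate block. The neuron list summed to at most 2.09 CPM in any library. The mast cell list summed to 1.29 to 9.30 CPM, highest in sciatic nerve replicate 4, with 0 counts in optic nerve. Endothelial and mural markers summed to 2.79 to 15.2 against 11.9 to 18.0 CPM, and adipocyte and muscle markers to 7.38 to 14.8 against 0.326 to 1.95 CPM. The part of these cells in the results below was not tested, and in bulk samples fewer cells of a type and less RNA per cell cannot be told apart.

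**Figure D2:**
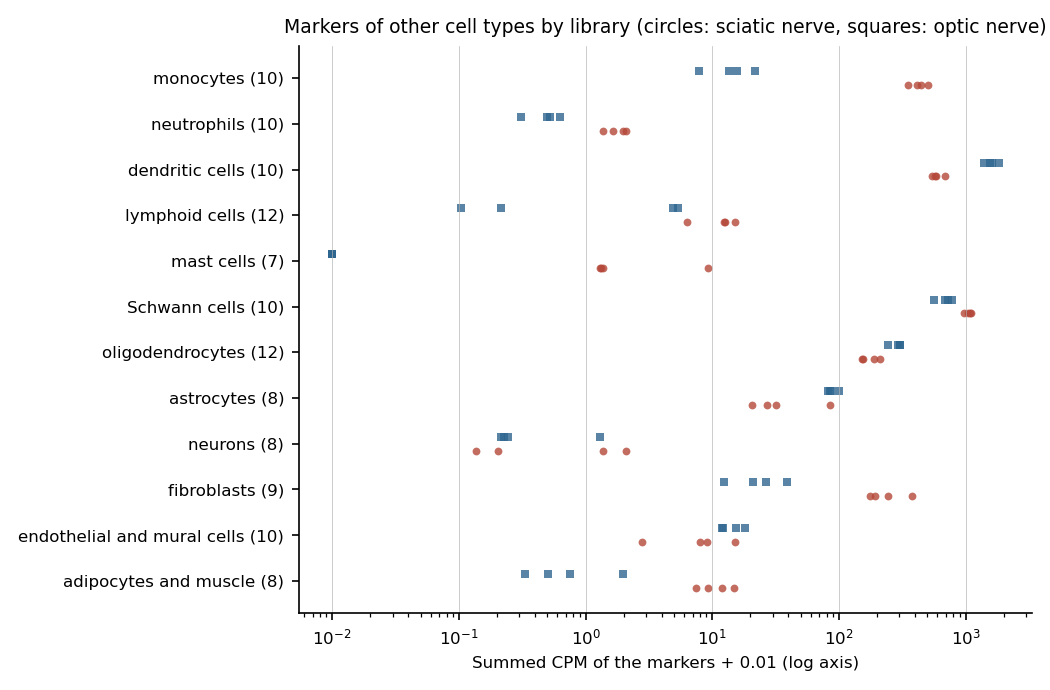
Summed CPM + 0.01 (x, log axis) of the marker genes of 12 other cell types in each library, circles for sciatic nerve and squares for optic nerve, with the number of genes of each list in brackets. Fibroblast, monocyte, neutrophil, lymphoid, mast cell, Schwann cell and adipocyte and muscle sums were higher in every sciatic nerve library than in every optic nerve library, and the dendritic and oligodendrocyte sums were lower. The dendritic sum in optic nerve was mostly Siglech, which is also on the microglia identity list.

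Genes known from microglia were far lower in sciatic nerve. Of 18 genes of the microglia identity list, 17 were lower and 1 higher (14.2% of all genes were lower), with a median log2 fold change of -4.22. The list was written with earlier results of these data known, so this count is a description and not a test. The libraries of the nerves did not overlap for any of the 18 (32.2% of all genes tested). Tmem119, a surface protein of microglia at chromosome 5, 113793729 to 113800516 (mm10), measured 7.71, 7.13, 6.03 and 3.87 against 1390.5, 1313, 1787 and 1884 CPM. Every optic nerve library lay far above every sciatic nerve library (log2 ratio -8.01, SE 0.26, adjusted p = 3.95e-09 by edgeR (quasi-likelihood, Benjamini-Hochberg)). Sall1, the factor that maintains microglial identity (chromosome 8, 89027235 to 89044162), measured 0.177, 0.0631, 0.194 and 0.0596 against 28.6, 27.8, 13.7 and 48.95 CPM. Optic nerve replicates themselves spread by over 3-fold here, yet the lowest stood far above all sciatic nerve libraries (log2 ratio -7.84, SE 0.55). Its relative Sall3 measured 0.0589, 0.0631, 0.0648 and 0.119 against 26.5, 17.5, 27.4 and 38.6 CPM (log2 ratio -8.36, SE 0.44). The fructose transporter gene Slc2a5 measured 1.001, 0.442, 0.842 and 0.238 against 271, 243, 323 and 294 CPM (log2 ratio -8.79, SE 0.30), and neither gene overlapped between the nerves.

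Other members of the list were lower in sciatic nerve but still well detected there. P2ry12, the ADP receptor that steers microglial processes (chromosome 3, 59216272 to 59262871), measured 123, 116, 127 and 141 against 2349, 2144, 2335 and 2223 CPM (log2 ratio -4.16, SE 0.12). Cx3cr1, the fractalkine receptor, averaged 1665 CPM in optic nerve and 218 CPM in sciatic nerve (log2 ratio -2.93, SE 0.16) and Trem2, a lipid-sensing receptor, 1440.1 and 168 CPM (log2 ratio -3.10, SE 0.17). The matrix protein gene Sparc differed more, at 5009 CPM in optic and 25.4 CPM in sciatic nerve (log2 ratio -7.62, SE 0.26), and the secreted protein gene Olfml3 at 2386 and 43.2 CPM (log2 ratio -5.79, SE 0.24). Fcrls, an Fc receptor-like gene known from microglia, was the list's exception, at 1279, 1311, 1319 and 1299.8 against 944, 1146, 1051 and 922 CPM (log2 ratio 0.36, SE 0.10, adjusted p = 0.0238 by edgeR (quasi-likelihood, Benjamini-Hochberg)). Its libraries did not overlap, but the difference was small, and adjusted p was 0.0542 without sciatic nerve replicate 2, 0.0808 without optic nerve replicate 1, 0.0511 without optic nerve replicate 4, 0.134 with total counts, 0.0658 with no filter on low counts and 0.0793 with the replicate block. Without this gene the list went 1 way, but by very different amounts, from -0.59 for Csf1r to -8.79 for Slc2a5.

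Genes known from border macrophages were higher in sciatic nerve, all 20 of 20 (14.6% of all genes were higher), with a median log2 fold change of 5.53. The libraries of the nerves did not overlap for any of them (32.2% of all genes tested). This list, too, was written with earlier results of these data known, so its count is a description and not a test. Its Cd209 members lie together on chromosome 8. Mrc1, the mannose receptor (chromosome 2, 14229392 to 14332057), measured 1517, 1828, 2198 and 1622 against 60.1, 36.3, 23.8 and 71.9 CPM. Cd163, the receptor for haemoglobin bound to haptoglobin (chromosome 6, 124304656 to 124330527), measured 1058, 999.9, 1394 and 1318 against 24.3, 19.4, 14.7 and 50.1 CPM (log2 ratio 5.22, SE 0.34 for Mrc1 and log2 ratio 5.46, SE 0.37 for Cd163). For both genes replicate 4 was the highest optic nerve library and replicate 3 the lowest, and all 4 lay far below sciatic nerve. The fatty acid and apoptotic cell receptor gene Cd36 measured 2699.7, 3131, 3101 and 2939 against 18.8, 11.4, 4.72 and 12.05 CPM (log2 ratio 7.98, SE 0.38). Ednrb, a receptor for endothelins, measured 648, 655, 725 and 635 against 8.85, 2.53, 2.36 and 1.36 CPM (log2 ratio 7.44, SE 0.51). The folate receptor gene Folr2 (449 ± 71.7 against 9.28 ± 4.62 CPM), the coagulation factor gene F13a1 (4431 ± 731 against 151 ± 68.04 CPM), the reductase gene Cbr2 (1407 ± 177 against 53.4 ± 22.2 CPM) and the hyaluronan receptor gene Lyve1 (772 ± 30.8 against 73.3 ± 22.3 CPM) were all higher. The smallest differences of the list were those of the scavenger receptor gene Stab1 (log2 ratio 2.54, SE 0.24) and the phosphatidylserine receptor gene Timd4 (log2 ratio 2.94, SE 0.18). Adjusted p of the 20 ranged from 1.51e-09 to 0.000135 by edgeR (quasi-likelihood, Benjamini-Hochberg).

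**Figure D3:**
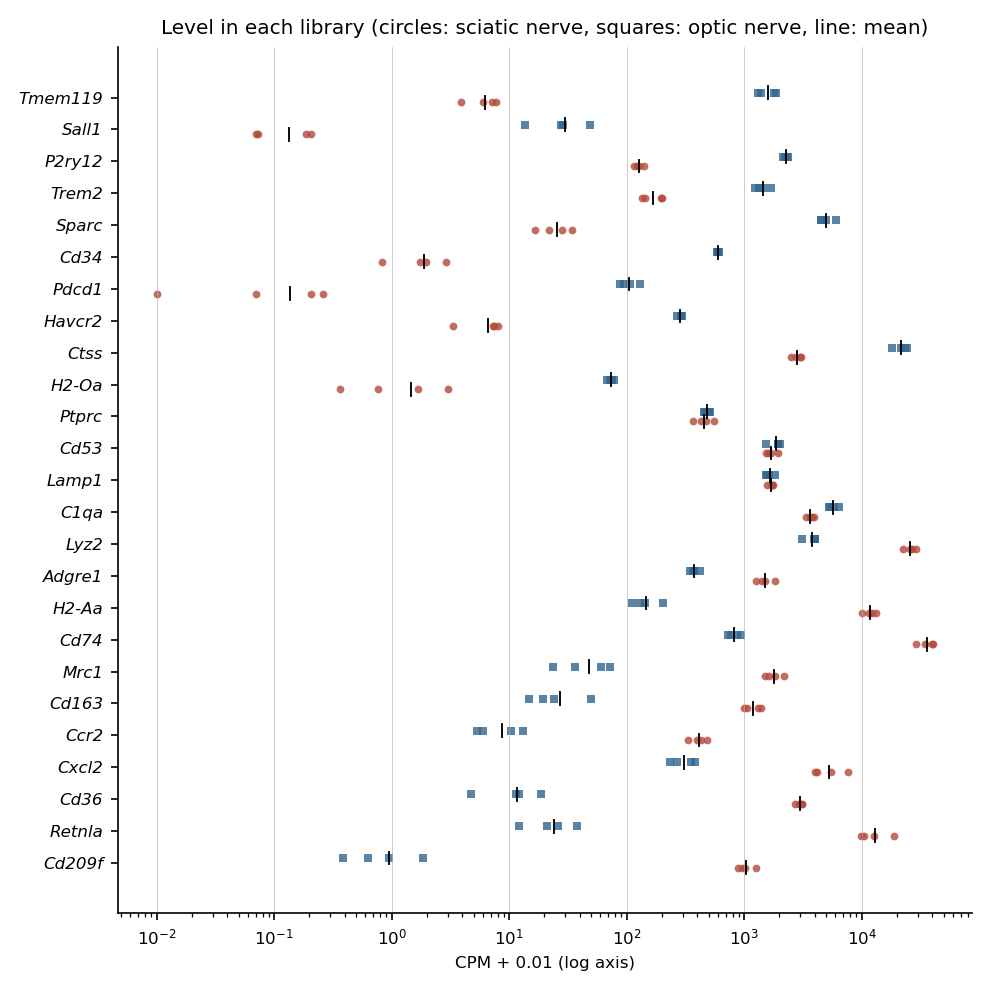
CPM + 0.01 (x, log axis) of 25 genes described in the text in each of the 8 libraries, red circles for sciatic nerve, blue squares for optic nerve and a vertical line for the mean of each nerve. Libraries of the nerves overlap for Ptprc, Cd53 and Lamp1 and are separate for the microglial genes at the top and the border macrophage genes at the bottom.

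Genes of antigen presentation by MHC class II differed in both directions. In sciatic nerve the genes of the peptide-binding chains and of the invariant chain Cd74 were among the most abundant transcripts. The genes that restrain peptide exchange, H2-Oa and H2-Ob, and the protease that trims the invariant chain, Ctss, were lower than in optic nerve. Of 14 tested genes of the list, 8 were higher and 4 lower (28.7% of all genes were called), with a median log2 fold change of 0.53. Most of these genes lie together on chromosome 17, and 110 bases before the RefSeq start of 5 of them (GRCm38.p6, the build of mm10) are printed because neighbours there went opposite ways. Capitals mark matches on either strand to the letters of the X box (TAGNAACNG) and of the Y box (GATTGG, or CCAATC where it reads on the other strand), elements known from MHC class II promoters.
H2-Aa, chr17:34287824-34287933, minus strand: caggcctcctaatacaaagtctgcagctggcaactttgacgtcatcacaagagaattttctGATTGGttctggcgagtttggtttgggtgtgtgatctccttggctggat
H2-Eb1, chr17:34305757-34305866, plus strand: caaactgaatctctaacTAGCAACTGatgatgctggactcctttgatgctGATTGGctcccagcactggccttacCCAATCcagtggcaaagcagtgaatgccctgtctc
H2-DMb1, chr17:34153081-34153190, plus strand: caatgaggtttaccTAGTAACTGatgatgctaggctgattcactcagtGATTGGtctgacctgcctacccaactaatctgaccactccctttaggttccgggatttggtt
H2-Oa, chr17:34092269-34092378, plus strand: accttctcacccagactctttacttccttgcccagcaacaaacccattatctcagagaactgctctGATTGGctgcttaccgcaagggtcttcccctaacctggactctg
H2-Ob, chr17:34238795-34238904, plus strand: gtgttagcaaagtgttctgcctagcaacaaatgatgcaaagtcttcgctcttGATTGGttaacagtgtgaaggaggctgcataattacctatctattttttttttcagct
The Y box letters stood in all 5 windows, those of H2-Oa and H2-Ob included, and the X box letters in H2-Eb1 and H2-DMb1. Of the 27025 genes with a promoter window of 300 bases (250 before to 50 after the start), 18.2% held the Y box letters and 4.08% the X box letters. Of the 8919 tested genes among them 23.8% held the Y box letters, with 19.6% of the genes at least 2-fold higher in sciatic nerve and 21.9% of those at least 2-fold lower. A match is a description of the letters, not a bound site.

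H2-Aa and H2-Ab1 encode the chains of the I-A molecule, and H2-Eb1 a chain of I-E. H2-Aa measured 12169, 13238, 10149.6 and 11635 against 144, 112, 130.0 and 205 CPM (log2 ratio 6.32, SE 0.22). H2-Ab1 measured 15669, 15787, 10598 and 10915 against 202, 192, 206 and 299.8 CPM (log2 ratio 5.88, SE 0.23). H2-Eb1, at 7749.9 ± 1245 against 103 ± 35.9 CPM, differed as much (log2 ratio 6.23, SE 0.26). All sciatic nerve libraries exceeded all optic nerve libraries for the 3 genes, yet each gene was detected in every optic nerve library. Ciita, the coactivator that switches these promoters on, was itself scarce, at 37.3, 19.9, 20.99 and 19.8 against 0.0466, 0.298, 0.975 and 3.58 CPM (log2 ratio 4.33, SE 0.83). The peptide-exchange genes H2-DMa and H2-DMb1 were higher by 0.61 and 1.98 on the log2 scale, with means of 734 against 479.9 CPM and 562 against 143 CPM. H2-DMb2 was not called (7.38 ± 2.02 against 12.7 ± 1.79 CPM). The exons of H2-DMa overlap those of Brd2 on the other strand.

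H2-Oa, which dampens peptide exchange by H2-DM, measured 3.002, 0.757, 1.68 and 0.358 against 68.1, 75.3, 78.2 and 71.7 CPM, so the lowest optic nerve library was far above the highest sciatic nerve library (log2 ratio -5.65, SE 0.46). Its exons overlap BC051537 on the other strand, and the sources used here do not give the strand setting of the counts. The partner gene H2-Ob was lower by less, at 20.95, 25.9, 17.8 and 25.2 against 85.8, 96.01, 104 and 81.5 CPM (log2 ratio -2.03, SE 0.16). Ctss measured 3078, 2766, 2504 and 2995 against 23264, 21571, 24306 and 18314 CPM (log2 ratio -2.95, SE 0.13). The thiol reductase gene Ifi30 averaged 83.6 against 147 CPM (log2 ratio -0.81, SE 0.15). Between the class II genes, Tap1, a peptide transporter gene of the class I pathway, was also lower (log2 ratio -0.93, SE 0.20). Its partner Tap2 and the immunoproteasome genes Psmb8 and Psmb9 were not called (112 against 101 CPM, 215 against 247 CPM and 74.6 against 85.2 CPM). Adjusted p of the 7 called genes named H2, of Cd74 and of Ctss ranged from 2.40e-09 to 0.00412 by edgeR (quasi-likelihood, Benjamini-Hochberg).

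Genes of costimulation and immune checkpoints went both ways. Of the 15 genes tested, 5 were higher and 7 lower (28.7% of all genes were called), and Pdcd1lg2, Btla, Ctla4, Tigit and Tnfsf4 were too low to test. The median was 0.11, and -0.04 when libraries were scaled to total counts. Pdcd1, which encodes the T cell inhibitory receptor PD-1, measured 0, 0.252, 0.194 and 0.0596 against 87.4, 129.5, 107 and 95.1 CPM (log2 ratio -9.65, SE 0.38). The receptor gene Lag3 measured 0.118, 0.252, 0.389 and 0.477 against 34.1, 32.5, 38.7 and 29.8 CPM (log2 ratio -6.75, SE 0.36). Havcr2, the gene of TIM-3, measured 8.12, 7.26, 3.30 and 7.51 against 291, 294, 289.5 and 268 CPM (log2 ratio -5.44, SE 0.25). For all 3 the optic nerve libraries lay close together and far above the sciatic nerve libraries. The PD-1 ligand gene Cd274 (6.68 ± 3.94 against 58.8 ± 29.7 CPM), the galectin gene Lgals9 and the checkpoint gene Vsir were lower too (-3.14, -1.34 and -1.53). Tnfsf9, the ligand of the costimulator 4-1BB, was higher, at 1223, 1142, 1114 and 997 against 244, 185, 392 and 111 CPM (log2 ratio 2.26, SE 0.31). The activating receptor gene Cd40 was higher as well (149.8 ± 20.1 against 46.5 ± 19.4 CPM, log2 ratio 1.69, SE 0.26), with a smaller difference for Cd86, a ligand of CD28 (563 ± 70.8 against 327 ± 45.4 CPM, log2 ratio 0.78, SE 0.14). Cd200r1 encodes an inhibitory receptor whose ligand neurons carry, and it was higher by the most of the list (37.3 ± 7.62 against 5.91 ± 2.70 CPM, log2 ratio 2.66, SE 0.32). Cd83, a maturation marker, was among the most abundant genes of both nerves and alike in level, at 12424, 11024, 11953 and 10264 against 10135, 10874, 13771 and 7530.3 CPM (95% interval -0.25 to 0.47), although its optic nerve libraries spread more.

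Lectin receptor genes that lie in clusters were higher together in sciatic nerve. The 7 Cd209 genes, relatives of the pathogen receptor DC-SIGN, lie on chromosome 8 (3743397 to 4137707, mm10). All 7 were higher (14.6% of all genes were higher), without overlap (32.2% of all genes tested). Each had at most 73 counts in optic nerve and passed the filter on low counts only through sciatic nerve. The 7 of 7 is therefore a description and not a test. Cd209f measured 1270.3, 957, 895 and 1014 against 0.373, 0.942, 0.616 and 1.85 CPM (log2 ratio 10.11, SE 0.37). Cd209d measured 455, 459.9, 463 and 532 against 0.233, 0.446, 0.154 and 0.109 CPM (log2 ratio 10.93, SE 0.26). The gene with the largest ratio, Cd209b, measured 348, 304, 341 and 433 against 0.0932, 0, 0.154 and 0.109 CPM (log2 ratio 11.87, SE 0.31). Per kilobase of exon, the levels of Cd209d and Cd209f were close to each other in sciatic nerve, at 519.7 and 520.2 CPM per kb, above Cd209a (204), Cd209b (169) and Cd209g (85.8). Cd209e had 14.1, 5.17, 17.2 and 11.03 CPM in sciatic nerve and 0 counts in optic nerve, at least 315-fold lower there (3 counts over the group), and Cd209c was the least abundant, at 2.54 ± 0.800 CPM. The windows before Cd209f and Cd209g are shown because they are nearly the same sequence, with the letters of an AP-1 element (TGANTCA) in capitals.
Cd209f, chr8:4105765-4105874, minus strand: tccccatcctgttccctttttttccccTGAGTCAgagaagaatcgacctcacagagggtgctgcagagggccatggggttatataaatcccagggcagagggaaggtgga
Cd209g, chr8:4134626-4134735, plus strand: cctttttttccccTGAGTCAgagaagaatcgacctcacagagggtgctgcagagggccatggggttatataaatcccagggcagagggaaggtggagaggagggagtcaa
All 96 bases over which these windows overlap were identical. Of the transcripts' words of 31 letters, Cd209f shared 36.3% with Cd209g and Cd209g 20.1% with Cd209f, so the authors' counting could split reads between them and their separate levels are uncertain. The AP-1 letters stood in 8.97% of all promoter windows and in 6.03% of those of tested genes.

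On chromosome 6, all 7 tested Clec4 genes were higher. Clec4b1 measured 238, 238, 199.6 and 285 against 1.12, 0.694, 1.74 and 0.760 CPM (log2 ratio 7.79, SE 0.27). The relative Clec4a1 measured 171 ± 27.2 against 4.14 ± 1.90 CPM (log2 ratio 5.36, SE 0.32) and Clec4n, which encodes the fungal receptor dectin-2, 139 ± 22.2 against 9.73 ± 3.78 CPM (log2 ratio 3.83, SE 0.26). Clec4a2, which encodes an inhibitory receptor, and its relative Clec4a3 differed less (log2 ratio 2.27, SE 0.12 and log2 ratio 2.89, SE 0.14) and averaged 62.1 and 50.9 CPM in optic nerve. Of the tested Ms4a genes of chromosome 19, which encode membrane proteins with 4 passes, 7 of 9 were higher. Among them were Ms4a7 (532 ± 81.1 against 32.3 ± 10.6 CPM, log2 ratio 4.04, SE 0.23), Ms4a4a (log2 ratio 4.84, SE 0.28) and Ms4a6b (log2 ratio 2.39, SE 0.12). Ms4a4c was not called (23.9 ± 9.62 against 37.01 ± 23.1 CPM). The Cd300 genes of chromosome 11 went both ways. Cd300ld (334 ± 36.2 against 14.4 ± 2.23 CPM, log2 ratio 4.53, SE 0.16) and Cd300lb (103 ± 6.35 against 14.4 ± 3.43 CPM, log2 ratio 2.84, SE 0.18) were higher. Cd300a, an inhibitory receptor gene, was alike (179 ± 21.3 against 165 ± 18.7 CPM). Cd300c2 (93.8 ± 14.5 against 383 ± 27.8 CPM, log2 ratio -2.03, SE 0.14) and Cd300lf (log2 ratio -2.90, SE 0.72) were lower. These clusters were picked after their values were seen, and they are given as counts beside the 28.7% called overall.

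Of 27 inhibitory and paired receptor genes, 14 were higher and 7 lower (28.7% of all genes were called), with a median of 2.00. Clec12a, an inhibitory receptor for uric acid crystals, measured 747, 881, 639 and 858 against 32.7, 18.9, 25.2 and 22.5 CPM (log2 ratio 4.97, SE 0.20). The activating receptor gene Lilra5 (log2 ratio 3.53, SE 0.15), the inhibitory receptor genes Pirb (log2 ratio 2.00, SE 0.19) and Lilrb4a (log2 ratio 2.48, SE 0.20) and the sialic acid lectin gene Siglec1 (log2 ratio 3.23, SE 0.42) were also higher. Lower were other sialic acid lectins, Siglech (215 ± 31.7 against 1554 ± 156 CPM, log2 ratio -2.85, SE 0.14), Siglecf (1.08 ± 0.770 against 39.8 ± 5.38 CPM, log2 ratio -5.19, SE 0.46) and Cd22 (log2 ratio -3.01, SE 0.62). The collagen receptor gene Lair1 (log2 ratio -1.70, SE 0.12) and the CD47 receptor gene Sirpa (log2 ratio -0.90, SE 0.14) were lower as well. Trem1, an amplifier of inflammation, measured 0.0589, 0, 0.0648 and 0 CPM in sciatic nerve and 7.13, 9.57, 9.08 and 6.30 CPM in optic nerve. Cd33 and Cd300a were alike in both nerves. Adjusted p of the genes named here as higher or lower ranged from 1.31e-08 to 0.00339 by edgeR (quasi-likelihood, Benjamini-Hochberg).

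Genes of efferocytosis, the uptake of dying cells, and of scavenging went both ways. Cd36, Cd163, Msr1 and Colec12 were higher in sciatic nerve, and Mertk, Itgav, Itgb5 and Olr1 were lower. Of 18 tested genes of efferocytosis and scavenging, 8 were higher and 6 lower (28.7% of all genes were called), with a median of 1.14. The modified lipoprotein receptor gene Msr1 measured 384, 392, 425 and 400.0 against 37.3, 40.4, 39.5 and 49.4 CPM (log2 ratio 3.26, SE 0.13). The collectin gene Colec12 measured 188 ± 17.2 against 9.54 ± 4.62 CPM (log2 ratio 4.30, SE 0.29). Gas6, which bridges dying cells to TAM receptors, measured 1179.9, 914, 964 and 895 against 92.8, 69.04, 78.7 and 82.7 CPM (log2 ratio 3.61, SE 0.15). Its receptor gene Mertk was lower at 46.7, 38.04, 55.2 and 60.6 against 149, 161, 153 and 159.8 CPM (log2 ratio -1.63, SE 0.15). Axl, another receptor of that family, was alike at 344 ± 45.1 against 358 ± 18.6 CPM. Another bridging protein gene, Pros1, was lower (log2 ratio -0.55, SE 0.11), as were the integrin genes Itgav (log2 ratio -1.34, SE 0.17) and Itgb5, the latter at 223, 189, 280.1 and 183 against 1963, 1749, 2435 and 2223 CPM (log2 ratio -3.26, SE 0.17). Olr1, the receptor for oxidised lipoprotein, measured 3.32 against 46.4 CPM (log2 ratio -3.79, SE 0.60), and the multi-ligand receptor gene Lrp1 was not called (96.2 ± 16.9 against 93.9 ± 30.4 CPM).

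Genes of lipid uptake and transport differed in both directions. Of 28 lipid genes, sciatic nerve had 13 higher and 8 lower (28.7% of all genes were called), with a median of 0.62. Apoe, the main lipid carrier, measured 30706, 22968, 18372 and 21632 against 7936, 8655, 10149 and 8269 CPM (log2 ratio 1.42, SE 0.16). Pltp, which moves phospholipid between particles, measured 2205, 1643, 1494 and 2013 against 58.4, 28.1, 55.2 and 93.2 CPM (log2 ratio 4.97, SE 0.33), and the optic nerve libraries spread by over 3-fold. The lysosomal lipase gene Lipa (log2 ratio 1.43, SE 0.12), the lipoprotein lipase gene Lpl (log2 ratio 1.15, SE 0.23), the lipid droplet gene Plin2 (log2 ratio 1.52, SE 0.17) and the cholesterol exporter gene Abca1 (log2 ratio 1.11, SE 0.25) were higher. The exporter gene Abcg1 was lower (2.61 ± 2.02 against 20.2 ± 6.95 CPM, log2 ratio -2.95, SE 0.51). Also lower were the desaturase gene Scd2 (log2 ratio -2.37, SE 0.35), the cholesterol esterification gene Soat1 (log2 ratio -0.60, SE 0.14) and the apolipoprotein gene Apoc1 (0.440 ± 0.210 against 12.4 ± 3.24 CPM, log2 ratio -4.79, SE 0.47).

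Of 15 tested genes of iron and haem handling, 11 were higher and none lower (14.6% of all genes were higher), with a median of 1.20, and 11 higher with 2 lower when libraries were scaled to total counts. Hmox1, which opens the haem ring, measured 1438, 1275, 582 and 899.7 against 394, 369, 553 and 408 CPM (log2 ratio 1.28, SE 0.25). The genes of the next enzymes, the biliverdin reductases Blvra and Blvrb, were higher too (log2 ratio 1.65, SE 0.16 and log2 ratio 2.93, SE 0.14). Blvrb, the larger of these differences, measured 294, 279, 227 and 251 against 31.2, 34.7, 39.1 and 32.9 CPM. The iron exporter ferroportin, Slc40a1, measured 125 ± 19.5 against 71.4 ± 12.1 CPM (log2 ratio 0.81, SE 0.16). The transferrin receptor gene Tfrc measured 108 ± 40.9 against 47.2 ± 13.8 CPM (log2 ratio 1.20, SE 0.30) and the haem transporter gene Slc48a1 103 ± 13.7 against 46.1 ± 14.95 CPM (log2 ratio 1.17, SE 0.22). Of the ferritin chains, Ftl1 was higher (log2 ratio 1.02, SE 0.17), and Fth1 was alike at 5562 ± 739.9 against 6378 ± 776 CPM. The phagosomal metal transporter gene Slc11a1 was not called (377 ± 37.8 against 452 ± 42.2 CPM). Adjusted p of the named iron genes that were called ranged from 3.69e-08 to 0.0106 by edgeR (quasi-likelihood, Benjamini-Hochberg).

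Chemokine genes were higher in sciatic nerve, 14 of 23, with 2 lower and a median of 2.66 (14.6% of all genes were higher). Among genes with counts in both nerves, Cxcl12 and Pf4 had the largest ratios. Attractants of neutrophils and monocytes were among the higher genes, and Ccl3, Ccl4, Cxcl9 and Cxcl10 were not called. Ppbp and Ccl11 had 0 counts in optic nerve, and the median is the same with both at their lower bounds. The neutrophil attractants Cxcl1, Cxcl2 and Cxcl3 lie close together on chromosome 5 and were higher together, so the 110 bases before their RefSeq starts are shown, with the letters of an NF-kB element (GGGA, any base, TTTCC) in capitals.
Cxcl1, chr5:90891135-90891244, plus strand: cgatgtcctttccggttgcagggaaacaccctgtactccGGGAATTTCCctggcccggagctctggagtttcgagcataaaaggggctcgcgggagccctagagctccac
Cxcl2, chr5:90903789-90903898, plus strand: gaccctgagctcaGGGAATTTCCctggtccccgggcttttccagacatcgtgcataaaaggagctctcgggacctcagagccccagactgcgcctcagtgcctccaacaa
Cxcl3, chr5:90785991-90786100, plus strand: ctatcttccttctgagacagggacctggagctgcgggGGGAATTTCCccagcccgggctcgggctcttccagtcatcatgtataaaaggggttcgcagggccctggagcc
The element began 71, 97 and 73 bases before the start and read GGGAATTTCC in all 3 genes. The looser element, GGGA, any base, TTTCC, stood in the windows of 126 of 27025 genes and of 48 of the 8919 tested genes. It stood in 8 of 858 genes at least 2-fold higher in sciatic nerve and in 4 of 743 at least 2-fold lower. The 8 included Cxcl1, Cxcl2, Cxcl3 and Il6, and in Il6 it read GGGATTTTCC. Outside the element the windows of the 3 Cxcl genes were less alike, with longest shared runs of 14, 11 and 11 bases between them. Cxcl2 and Cxcl3 transcripts shared 7.59% and 4.56% of their words of 31 letters.

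Cxcl2 measured 4045, 5472, 4141 and 7615 against 384, 269, 352 and 235 CPM (log2 ratio 4.10, SE 0.25). Its neighbour Cxcl1 measured 2294, 3624, 2296 and 3869 against 103, 63.4, 108 and 71.97 CPM (log2 ratio 5.13, SE 0.26). Cxcl3 was rarer, at 49.5 ± 13.7 against 1.78 ± 1.40 CPM (log2 ratio 4.80, SE 0.49). Among monocyte attractants, Ccl2 measured 6026, 7404, 5377 and 8881 against 701, 696, 683 and 424 CPM (log2 ratio 3.47, SE 0.21). Ccl7, a ligand of the same receptor, measured 6346, 7768, 6022 and 9376 against 425, 272, 271 and 232 CPM (log2 ratio 4.62, SE 0.23). Every sciatic nerve library exceeded every optic nerve library for all 5. Pf4, the platelet factor, measured 2607 ± 381 against 40.5 ± 14.97 CPM (log2 ratio 6.01, SE 0.29). Its neighbour Ppbp had 11.8, 16.8, 12.8 and 16.5 CPM with 0 counts in optic nerve, at least 384-fold lower (3 counts over the group). Ccl24, which attracts eosinophils, measured 1076 ± 158 against 24.96 ± 8.67 CPM (log2 ratio 5.43, SE 0.26), and Ccl8 157 ± 73.9 against 3.36 ± 1.98 CPM (log2 ratio 5.54, SE 0.56). Cxcl12, a retention signal for leukocytes, measured 97.1 ± 9.29 against 0.658 ± 1.08 CPM (log2 ratio 7.21, SE 0.76). Ccl6 and Ccl9 differed by 2.66 and 1.77 on the log2 scale.

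The inflammatory chemokine genes Ccl3 and Ccl4 were abundant in both nerves and not called. Ccl3 measured 3038, 4218, 2932 and 5253 against 3196, 3516, 3902 and 2258 CPM and Ccl4 3849, 5541, 3764 and 6212 against 7179, 8130.4, 8135 and 5176 CPM (adjusted p = 0.403 and 0.0502 by edgeR (quasi-likelihood, Benjamini-Hochberg)). Their libraries spread widely within each nerve. Ccl5, an attractant of T cells, was scarce and lower in sciatic nerve (2.58 ± 1.36 against 16.5 ± 7.94 CPM, log2 ratio -2.67, SE 0.48), with Ccl22 (3.59 ± 0.620 against 14.001 ± 8.23 CPM, log2 ratio -1.96, SE 0.46). Of the interferon-driven Cxcr3 ligands, Cxcl10 was not called at 259 ± 67.4 against 269 ± 64.5 CPM, and Cxcl9 stood at 2.66 against 9.34 CPM. Of 9 tested receptor genes, 4 were higher and 1 lower (28.7% of all genes were called). Ccr2, the receptor for Ccl2 and Ccl7, measured 334, 431, 488 and 399.6 against 10.4, 6.001, 5.34 and 13.2 CPM (log2 ratio 5.56, SE 0.30). Cxcr4 (37.1 ± 9.56 against 5.04 ± 0.961 CPM, log2 ratio 2.88, SE 0.25), Cxcr3 (24.1 ± 6.87 against 0.446 ± 0.449 CPM, log2 ratio 5.70, SE 0.62) and Ccr1 (512 ± 73.6 against 220.1 ± 38.4 CPM, log2 ratio 1.22, SE 0.15) were higher. Cx3cr1 was lower.

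**Figure D4:**
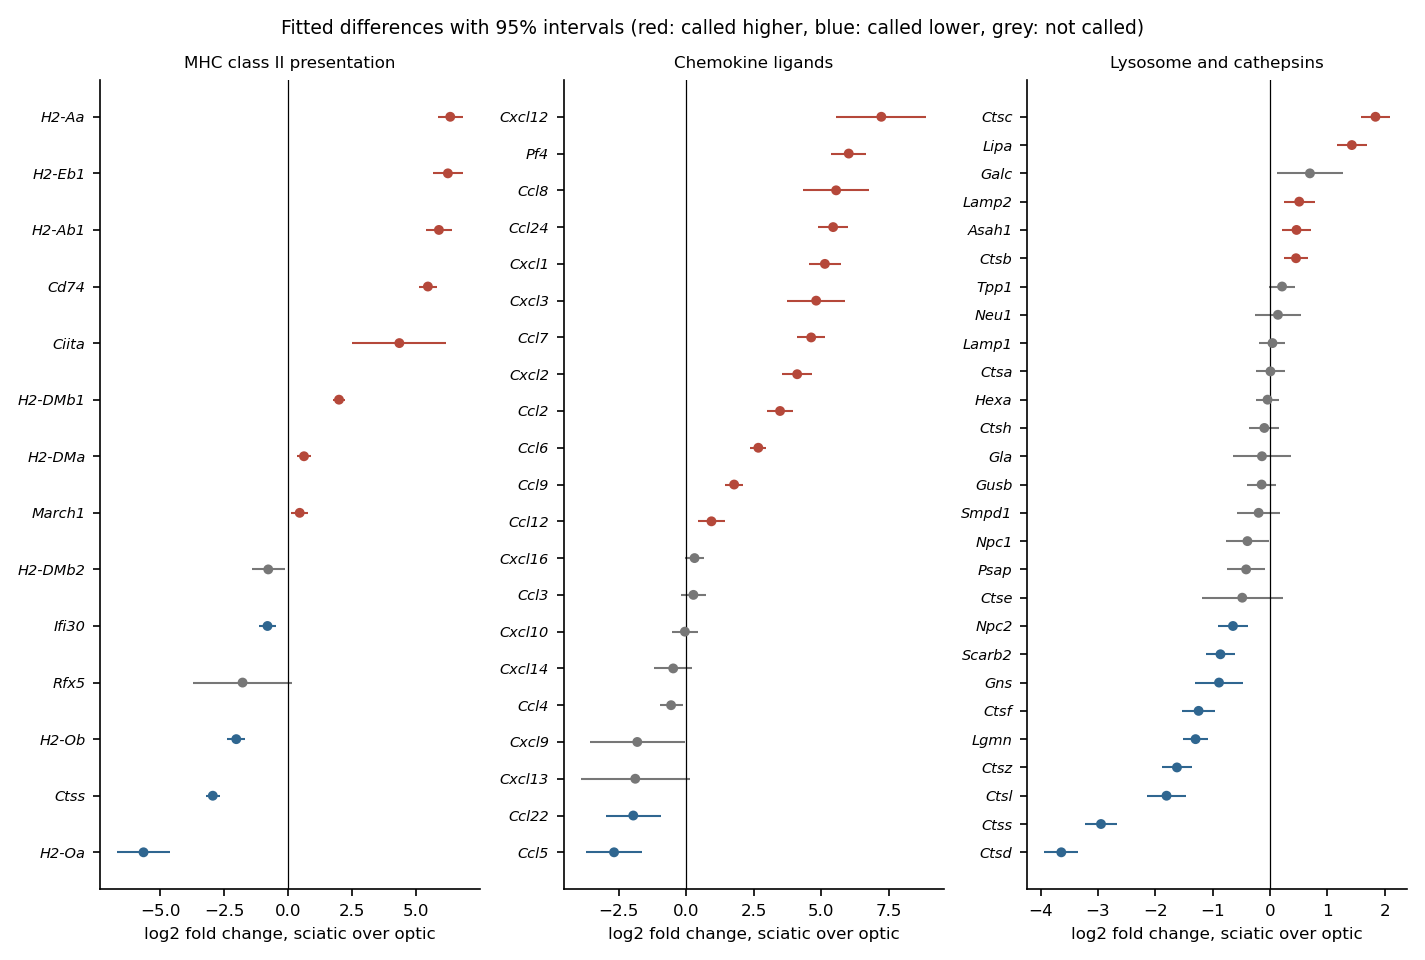
Fitted log2 fold change of sciatic over optic nerve (x) with its 95% interval for tested genes of the MHC class II list and of the lysosome and cathepsin list and for chemokine ligands with counts in both nerves, red where called higher, blue where called lower and grey where not called. Class II chains, neutrophil and monocyte attractants and Ctsc lie on the right, and H2-Oa, Ctss, Ctsd and Ccl5 on the left.

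Cytokine genes divided. Of 16 tested, 5 were higher and 4 lower (28.7% of all genes were called), with a median of 0.24. The inflammatory Il1b measured 6072, 5941, 6914 and 6656 against 1582, 2174, 1974 and 1441 CPM (log2 ratio 1.83, SE 0.14). The fever cytokine gene Il6 measured 117, 122, 145 and 100.2 against 13.3, 10.3, 18.01 and 7.27 CPM (log2 ratio 3.31, SE 0.26). The anti-inflammatory Il10 measured 157, 180.1, 178 and 285 against 2.05, 6.15, 0.0513 and 3.47 CPM (log2 ratio 6.09, SE 0.66), with optic nerve libraries that differed among themselves and all lay far below sciatic nerve. Il1a, which signals through the same receptor as Il1b, was lower, at 1484, 2002, 2020.2 and 2016 against 4809, 5697, 5895 and 3411 CPM (log2 ratio -1.40, SE 0.18). Also lower were Osm (157 ± 21.3 against 334 ± 34.5 CPM, log2 ratio -1.09, SE 0.13), the B cell factor gene Tnfsf13b (log2 ratio -1.95, SE 0.17) and Csf1, a ligand of Csf1r (22.7 ± 5.40 against 131 ± 15.7 CPM, log2 ratio -2.52, SE 0.18). Tnf was not called, at 1373, 1668, 1274 and 1734 against 1179, 1275, 1521 and 983 CPM, nor was the receptor antagonist gene Il1rn (769 ± 77.4 against 515 ± 196 CPM).

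Early response genes, which are known to rise within minutes of a stimulus and during cell isolation, were abundant in both nerves. Of 31, 13 were higher, 5 lower and 13 not called (28.7% of all genes were called), with a median of 0.21. Fos measured 3469.6, 2999, 2669 and 2934 against 1177, 1171, 1035 and 1872 CPM (log2 ratio 1.20, SE 0.18). Zfp36, which destabilises cytokine messages, measured 4979 ± 403 against 1247 ± 221 CPM (log2 ratio 2.00, SE 0.14). Differences were larger for Ier3, at 2259 ± 377 against 467 ± 31.5 CPM (log2 ratio 2.28, SE 0.14), and Nr4a2, at 92.2 ± 5.35 against 9.88 ± 4.18 CPM (log2 ratio 3.22, SE 0.28). Atf3 at 2792 ± 451 against 2654 ± 255 CPM, Btg2 at 1864 ± 243 against 1745 ± 361 CPM and Jund at 356 ± 44.3 against 342 ± 48.6 CPM were alike, and Jun was not called (596 ± 113 against 786 ± 322 CPM). The heat shock genes Hspa1a and Hspa1b stood at 79.2 against 89.7 CPM and 53.2 against 54.4 CPM, and neither was called. Lower in sciatic nerve were Rhob (log2 ratio -1.58, SE 0.22), Dusp5 (log2 ratio -1.06, SE 0.17) and Myc (log2 ratio -0.73, SE 0.16). The part of cell isolation in these levels was not tested.

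Genes known from macrophages under interleukin-4 split, with 8 of 13 higher and 4 lower (28.7% of all genes were called) and a median of 1.74. Retnla, a secreted resistin-like protein (chromosome 16, 48842551 to 48844461), measured 12843, 9925, 10422 and 18788 against 38.1, 25.99, 21.2 and 12.2 CPM (log2 ratio 9.06, SE 0.42). Replicate 4 was the highest sciatic nerve library and the lowest optic nerve library, and no library of the nerves came near the other nerve. The galactose lectin genes Mgl2, at 3578, 3537, 3009.9 and 3211 against 10.2, 7.39, 13.1 and 19.8 CPM, and Clec10a, at 648, 561, 526 and 691 against 2.56, 2.48, 1.54 and 2.71 CPM, had smaller spread (log2 ratio 8.04, SE 0.31 and log2 ratio 8.02, SE 0.21). The transcription factor gene Irf4 measured 36.7 ± 9.12 against 6.30 ± 5.96 CPM (log2 ratio 2.54, SE 0.69) and Egr2 609 ± 115 against 183 ± 5.32 CPM (log2 ratio 1.74, SE 0.14). Lower in sciatic nerve was the transglutaminase gene Tgm2, at 2.59, 1.77, 1.30 and 1.91 against 106, 116, 163 and 143 CPM (log2 ratio -6.12, SE 0.25). Socs2, a brake on growth hormone signals, was lower too (0.928 ± 0.522 against 14.1 ± 7.10 CPM, log2 ratio -3.92, SE 0.52). Arg1 and Chil3, the other classical members, were not tested, with 0.564 against 0.335 CPM for Arg1 and 0 counts for Chil3 in all 8 libraries. The interleukin-4 receptor gene Il4ra was alike (277 ± 59.8 against 300.4 ± 51.7 CPM).

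Transcription factors of macrophages divided as well. Of 35 tested, 15 were higher and 10 lower (28.7% of all genes were called). Spic, which drives iron-recycling macrophages, measured 36.8, 53.8, 27.3 and 46.8 against 0, 0.744, 1.59 and 0 CPM (log2 ratio 6.13, SE 0.83). Pparg, a lipid-sensing nuclear receptor, measured 37.2, 43.7, 33.8 and 25.9 against 0.279, 0.0496, 0 and 0 CPM (log2 ratio 8.55, SE 0.61). Tfec, a relative of the lysosomal regulator Tfeb, measured 20.8, 17.6, 18.01 and 25.2 CPM in sciatic nerve with 1 count in optic nerve. Maf, a factor of many tissue macrophages, measured 207, 241, 195 and 244 against 73.9, 51.4, 63.9 and 66.8 CPM (log2 ratio 1.79, SE 0.14). Id3, an inhibitor of other factors, measured 95.4 ± 13.3 against 28.4 ± 3.09 CPM (log2 ratio 1.75, SE 0.15) and the xenobiotic receptor gene Ahr 37.01 ± 18.01 against 3.38 ± 2.16 CPM (log2 ratio 3.45, SE 0.61). Besides Sall1 and Sall3, the lower side held Irf8, a factor that microglia depend on, at 232, 204, 203 and 196 against 651, 689, 905 and 669 CPM (log2 ratio -1.80, SE 0.13). Id2 (411 ± 36.4 against 1309.6 ± 298 CPM, log2 ratio -1.67, SE 0.17), Cebpa (19.9 ± 2.53 against 73.6 ± 12.7 CPM, log2 ratio -1.89, SE 0.18) and Bhlhe40 (26.5 ± 10.04 against 102 ± 20.4 CPM, log2 ratio -1.94, SE 0.28) were lower too. Mef2c, a factor of microglial enhancers, was alike at 372, 485, 440.2 and 485 against 469, 446, 418 and 416 CPM (95% interval -0.23 to 0.28), and Spi1, Runx1 and Cebpb were not called.

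Of 25 tested TGF-beta genes, 4 were higher, 10 lower and 11 not called (28.7% of all genes were called), with a median of -0.47. Tgfbr1, a chain of the receptor, measured 54.97, 85.9, 134 and 93.8 against 566, 588, 530.1 and 605 CPM (log2 ratio -2.64, SE 0.23). The other chain, Tgfbr2, was not called, at 265, 208, 349 and 231 against 261, 336, 247 and 346 CPM, and its libraries overlapped. Downstream, the feedback inhibitor gene Smad7 measured 1.35, 2.33, 1.17 and 5.19 against 33.1, 32.7, 30.2 and 32.2 CPM (log2 ratio -3.67, SE 0.43). The signal transducer gene Smad3 measured 8.47 ± 4.48 against 21.6 ± 3.55 CPM (log2 ratio -1.35, SE 0.36), while Smad2 was alike (83.6 ± 8.98 against 73.8 ± 8.92 CPM) and Smad4 not called (84.98 ± 19.4 against 70.6 ± 15.2 CPM). The ligand gene Tgfb1 was not called (128 ± 20.5 against 151 ± 13.8 CPM). Nrros, which anchors latent TGF-beta on microglia and macrophages, was higher, at 665, 556, 692 and 556 against 247, 281, 344 and 292 CPM (log2 ratio 1.09, SE 0.13). So was Tgfbi, a secreted matrix protein (966 ± 123 against 98.1 ± 41.9 CPM, log2 ratio 3.30, SE 0.28).

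Of 20 tested complement genes, 9 were higher and 5 lower (28.7% of all genes were called), with a median of 0.81. Properdin, Cfp, which stabilises the alternative pathway convertase, measured 1189, 1011, 879 and 1064 against 25.99, 13.3, 21.4 and 25.2 CPM (log2 ratio 5.59, SE 0.23). C5ar1, the anaphylatoxin receptor, measured 2971 ± 189 against 1244 ± 83.04 CPM (log2 ratio 1.26, SE 0.10). The convertase gene C2 measured 17.5 ± 2.54 against 2.74 ± 0.511 CPM (log2 ratio 2.67, SE 0.28) and Cfb 12.8 ± 3.64 against 0.512 ± 0.431 CPM (log2 ratio 4.62, SE 0.61). The C1q chains were lower by a small margin. C1qa measured 3947, 3612, 3372 and 3778 against 5403, 5301, 6429 and 5870.4 CPM (log2 ratio -0.65, SE 0.11), with C1qb and C1qc at -0.75 and -0.59. The receptor integrins Itgam and Itgax were lower by more (log2 ratio -6.37, SE 0.63 for Itgax, 0.316 ± 0.388 against 26.97 ± 8.83 CPM), and the receptor gene C3ar1 was alike (1954 ± 110.1 against 1773 ± 238 CPM). Among 7 tested Fc receptor genes, the recycling receptor gene Fcgrt measured 1942, 1708, 1709 and 1771 against 161, 171, 224 and 195 CPM (log2 ratio 3.25, SE 0.13). The inhibitory Fcgr2b measured 907 ± 28.4 against 293 ± 31.8 CPM (log2 ratio 1.63, SE 0.11), and both were higher. The activating Fcgr1 was lower (206 ± 14.6 against 342 ± 28.8 CPM, log2 ratio -0.73, SE 0.11), and Fcgr3 was alike (1598 ± 177 against 1803 ± 225 CPM).

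Toll-like receptor genes went 5 higher and 6 lower of 17 (28.7% of all genes were called). The nucleic acid sensors divided. Tlr8 was higher (24.6 ± 18.6 against 1.40 ± 1.40 CPM, log2 ratio 4.13, SE 0.86). Tlr3 (10.8 ± 6.73 against 42.4 ± 11.5 CPM, log2 ratio -1.97, SE 0.50) and Tlr13 (38.7 ± 19.04 against 152 ± 34.2 CPM, log2 ratio -1.98, SE 0.32) were lower, and Tlr7 was not called (148 ± 40.5 against 146 ± 38.3 CPM). The flagellin receptor gene Tlr5 was higher (18.8 ± 7.59 against 2.60 ± 0.364 CPM, log2 ratio 2.85, SE 0.35). Of the accessory proteins, Ly96, the partner of Tlr4, was higher (log2 ratio 1.31, SE 0.15), and Cd180 with its partner Ly86 lower (log2 ratio -1.63, SE 0.20 and log2 ratio -1.85, SE 0.14). Tlr2 was alike (1782 ± 377 against 1981 ± 219 CPM). Tlr4 was not called and was uneven in both nerves, at 79.04, 30.03, 97.6 and 49.6 against 13.1, 57.9, 32.1 and 52.4 CPM. Adjusted p of the called genes named here ranged from 2.23e-06 to 0.0122 by edgeR (quasi-likelihood, Benjamini-Hochberg).

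Lysosomal genes did not move as 1 group. Of 29 tested, 5 were higher, 10 lower and 14 not called (28.7% of all genes were called), 7 were alike, and the median was -0.20. Ctsd, the main aspartic protease of lysosomes, was lower, at 932, 704, 691 and 882 against 9431, 9892, 10098 and 10539 CPM (log2 ratio -3.64, SE 0.13). The cysteine proteases Ctsl, at 703 ± 134 against 2456 ± 262 CPM (log2 ratio -1.80, SE 0.15), and Ctsz, at 1012 ± 108 against 3117 ± 335 CPM (log2 ratio -1.62, SE 0.12), were lower beside Ctss. Ctsc, the activator of serine proteases, was higher, at 6765, 6348, 7922 and 6879.6 against 1903, 1995, 1760.4 and 2155 CPM (log2 ratio 1.84, SE 0.11). The difference was smaller for Ctsb, at 9564 ± 564 against 6990.3 ± 373 CPM (log2 ratio 0.45, SE 0.10). Hexa, which encodes an enzyme of ganglioside breakdown, was alike at 1378, 1379, 1396 and 1344 against 1363, 1426, 1394 and 1484 CPM (95% interval -0.24 to 0.16), and its libraries lay close together in both nerves. Lamp1, Ctsa, Ctsh, Gusb and Tpp1 were alike like Hexa, and the sphingolipid activator gene Psap was not called (1980.3 ± 128 against 2644 ± 587 CPM).

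Growth factor genes went 5 higher and 6 lower of 19 tested (28.7% of all genes were called), and the neurotrophic factor genes Bdnf and Gdnf had 0 counts in all 8 libraries. Igf1, a survival factor for glia and neurons, measured 192, 178, 203 and 205 against 9.60, 7.34, 8.62 and 15.6 CPM (log2 ratio 4.24, SE 0.23). The morphogen gene Bmp2 measured 268, 351, 407 and 438 against 16.7, 7.89, 9.34 and 19.1 CPM (log2 ratio 4.79, SE 0.31). The EGF receptor ligand gene Hbegf differed less (365 ± 73.7 against 140.0 ± 54.1 CPM, log2 ratio 1.38, SE 0.26). The platelet-derived growth factors parted, Pdgfc higher (32.7 ± 7.71 against 2.12 ± 2.20 CPM, log2 ratio 3.95, SE 0.82) and Pdgfa and Pdgfb lower (log2 ratio -1.45, SE 0.18 and log2 ratio -2.48, SE 0.17). Sema4d, an axon guidance and immune semaphorin, measured 28.3, 21.6, 32.5 and 31.8 against 202, 210.5, 175 and 241 CPM (log2 ratio -2.86, SE 0.17). Osteopontin, Spp1, measured 34.1 ± 8.07 against 117 ± 16.1 CPM (log2 ratio -1.77, SE 0.19). Progranulin, Grn, was alike at 2294, 1935, 1921 and 1982 against 2117, 2072, 2239.6 and 2411 CPM (95% interval -0.35 to 0.11).

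Matrix and protease genes went 11 higher and 6 lower of 25 (28.7% of all genes were called). The gelatinase gene Mmp9 measured 529, 494, 508 and 433 against 1.12, 2.13, 1.49 and 2.61 CPM (log2 ratio 8.07, SE 0.25). The collagenase gene Mmp13 measured 168, 179.8, 193 and 299 against 0.140, 1.04, 3.59 and 1.52 CPM (log2 ratio 7.07, SE 0.57), and both genes stayed low in all optic nerve libraries. The membrane-bound Mmp14 (11.1 ± 3.22 against 69.6 ± 12.8 CPM, log2 ratio -2.65, SE 0.24) and Mmp2, which it activates (1.26 ± 1.04 against 15.9 ± 7.47 CPM, log2 ratio -3.65, SE 0.72), were lower. The secreted matrix protein gene Ecm1 was higher (322 ± 66.2 against 19.998 ± 8.07 CPM, log2 ratio 4.01, SE 0.28). Adamts1, a protease of proteoglycans, was lower (8.48 ± 4.15 against 192 ± 37.9 CPM, log2 ratio -4.50, SE 0.34), and Timp2 alike (1062 ± 62.9 against 894 ± 105 CPM). The fibroblast markers were also higher in sciatic nerve (177 to 375 against 12.4 to 38.7 CPM in sum). Their part in the higher matrix genes was not tested.

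Adhesion genes were more often lower, 14 of 26, with 7 higher (14.2% of all genes were lower) and a median of -0.74. Cd34, a sialomucin of stem cells and vessels, measured 0.824, 1.96, 1.75 and 2.92 against 587, 598, 608 and 597 CPM (log2 ratio -8.32, SE 0.29). The optic nerve libraries were nearly equal, and the gene was nearly missing from all sciatic nerve libraries. Its exons overlap Gm16897 on the other strand. The selectin ligand gene Selplg was lower (207 ± 40.7 against 2367 ± 425 CPM, log2 ratio -3.51, SE 0.18). The adhesion receptor gene Adgrg1, known from microglia, differed more (7.19 ± 3.98 against 339 ± 73.2 CPM, log2 ratio -5.56, SE 0.38), as did the junction gene Jam2 (0.524 ± 0.268 against 87.4 ± 12.1 CPM, log2 ratio -7.37, SE 0.31). Of the integrin genes, Itgb3 (log2 ratio -6.16, SE 0.91) and Itgb2 (log2 ratio -0.92, SE 0.11) were lower. Higher were Itga4, a chain of the receptor for Vcam1 (35.4 ± 2.61 against 3.93 ± 2.71 CPM, log2 ratio 3.17, SE 0.46), the hyaluronan receptor gene Cd44 (228 ± 38.2 against 40.1 ± 5.93 CPM, log2 ratio 2.50, SE 0.17), Adgre5 (log2 ratio 2.66, SE 0.31) and Ninj1 (log2 ratio 1.63, SE 0.19). Pecam1, which vessels also express, measured 0.150 against 6.14 CPM (log2 ratio -5.28, SE 1.04), and the endothelial and mural sum did not separate the nerves.

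Genes of purine receptors differed in both directions. Of 15 tested genes, 4 were higher and 6 lower (28.7% of all genes were called). Besides P2ry12, the related receptor gene P2ry13 was lower (129 ± 26.5 against 979 ± 20.6 CPM, log2 ratio -2.92, SE 0.15). The adenosine receptor gene Adora3 (0.195 ± 0.237 against 17.5 ± 1.70 CPM, log2 ratio -6.42, SE 0.66) and the ATP-degrading enzyme gene Entpd1 (167 ± 28.7 against 379.5 ± 21.3 CPM, log2 ratio -1.18, SE 0.14) were lower. The adenosine receptor gene Adora2b was higher (20.8 ± 5.94 against 5.56 ± 2.53 CPM, log2 ratio 1.90, SE 0.36). The UDP-glucose receptor gene P2ry14 (7.96 ± 3.11 against 0.389 ± 0.642 CPM, log2 ratio 4.31, SE 0.98) and the ATP channel gene P2rx4 (302 ± 17.1 against 152 ± 30.02 CPM, log2 ratio 0.99, SE 0.14) were higher. P2ry6 and P2rx7 were alike (195 ± 21.2 against 178 ± 12.998 CPM and 101 ± 17.4 against 95.1 ± 11.9 CPM). Exons of P2ry12 overlap Med12l on the other strand.

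Receptors for nerve-derived signals were mostly too low to test, 18 of 27. Of the 9 tested, 4 were higher and 2 lower (28.7% of all genes were called). Besides Ednrb, the monoamine oxidase gene Maoa was higher, at 112, 139.7, 110.5 and 113 against 7.03, 9.62, 7.18 and 7.33 CPM (log2 ratio 3.93, SE 0.17). The leukotriene receptor gene Cysltr1 (172 ± 18.5 against 73.9 ± 11.04 CPM, log2 ratio 1.22, SE 0.14) and the CGRP and adrenomedullin receptor gene Calcrl (41.3 ± 17.9 against 12.97 ± 6.09 CPM, log2 ratio 1.67, SE 0.39) were higher. Ramp1, which turns Calcrl into the CGRP receptor, was lower (30.2 ± 3.86 against 72.4 ± 8.29 CPM, log2 ratio -1.26, SE 0.15), so the partners went opposite ways.

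Genes known from disease-associated microglia were divided, 6 higher, 8 lower and 6 not called of 20 (28.7% of all genes were called). Cst7, an inhibitor of cathepsin C, measured 0.294, 0.379, 0 and 0.119 against 57.4, 65.1, 49.8 and 39.2 CPM (log2 ratio -8.001, SE 0.47). The tetraspanin gene Cd9 measured 165 ± 30.7 against 1717 ± 225 CPM (log2 ratio -3.38, SE 0.17), and Itgax, Trem2, Ctsd, Csf1 and Spp1 were lower as given above. Igf1, Apoe and Lpl were higher, with the galectin gene Lgals3 (232 ± 66.8 against 86.7 ± 18.4 CPM, log2 ratio 1.42, SE 0.23) and Ch25h, which makes an antiviral oxysterol (189 ± 12.99 against 55.6 ± 24.8 CPM, log2 ratio 1.76, SE 0.26). Cd63 and the fungal receptor gene Clec7a were not called (455 ± 64.5 against 382 ± 50.2 CPM and 507 ± 80.2 against 389.7 ± 42.6 CPM).

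Interferon response genes were mostly not called, 14 of 22, with 7 higher and 1 lower (28.7% of all genes were called). The median was 0.08 (-0.07 when libraries were scaled to total counts). The entry inhibitor genes Ifitm2 and Ifitm3 carried the largest differences of the list. Ifitm2 measured 209, 265, 252 and 327 against 15.5, 11.6, 11.9 and 15.9 CPM (log2 ratio 4.26, SE 0.19) and Ifitm3 991, 1108, 1044 and 1289 against 268, 150.4, 204 and 139 CPM (log2 ratio 2.54, SE 0.21). Ifi27l2a (log2 ratio 1.83, SE 0.18) and Oasl2 (log2 ratio 1.86, SE 0.25) were higher as well, and Isg15, Irf7 and Rsad2 were not called (56.1 against 53.2 CPM, 88.1 against 71.3 CPM and 72.7 against 43.8 CPM).

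Cell cycle genes were low in both nerves. Of 20, 3 were higher and none lower (14.6% of all genes were higher and 14.2% lower). The share higher was thus close to that over all genes, and the genes named next are single members of the list. The proliferation marker Mki67 measured 5.94, 12.7, 16.5 and 14.5 against 0.932, 1.14, 3.03 and 1.85 CPM (log2 ratio 2.83, SE 0.48). The mitotic kinase gene Aurkb measured 12.03 ± 4.06 against 2.64 ± 1.31 CPM (log2 ratio 2.19, SE 0.45) and the replication gene Mcm6 77.9 ± 11.98 against 35.7 ± 8.95 CPM (log2 ratio 1.13, SE 0.20). Top2a was not called at 17.8 ± 5.77 against 17.5 ± 5.23 CPM, and Pcna was alike at 80.5 ± 19.8 against 82.5 ± 8.97 CPM. Of 15 clock genes, 3 were higher and 2 lower (28.7% of all genes were called). Arntl, which encodes BMAL1, measured 38.4, 42.02, 33.7 and 50.4 against 9.55, 9.62, 10.1 and 12.5 CPM (log2 ratio 1.98, SE 0.20), so each sciatic nerve library was well above each optic nerve library. Its partner Clock measured 24.7 ± 5.74 against 8.59 ± 3.39 CPM (log2 ratio 1.52, SE 0.32) and the repressor gene Ciart 22.7 ± 10.7 against 2.98 ± 1.71 CPM (log2 ratio 2.93, SE 0.52). Nr1d2, Per1 and Rora were not called (18.4 against 17.3 CPM, 19.6 against 16.5 CPM and 19.2 against 16.4 CPM).

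Genes of ribosomal proteins and of oxidative phosphorylation were seldom called. Of 79 tested genes of cytosolic ribosomal proteins, 1 was higher and 4 lower, 18 were alike, and the median was -0.09. Of 86 nuclear genes of oxidative phosphorylation, none were higher, 4 were lower and 30 were alike, with a median of 0.06. Scaled to total counts, the latter had 14 lower and a median of -0.10. Zinc finger (Zfp) genes were called in 34 of 281 (14 higher, 20 lower), and solute carriers in 74 of 191 (34 and 40). Of 19 proton pump (V-ATPase) genes, 6 were higher and 3 lower. Over all genes 28.7% were called, which is more than in the ribosomal, oxidative phosphorylation and zinc finger families and less than among solute carriers and proton pump genes.

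**Figure D5:**
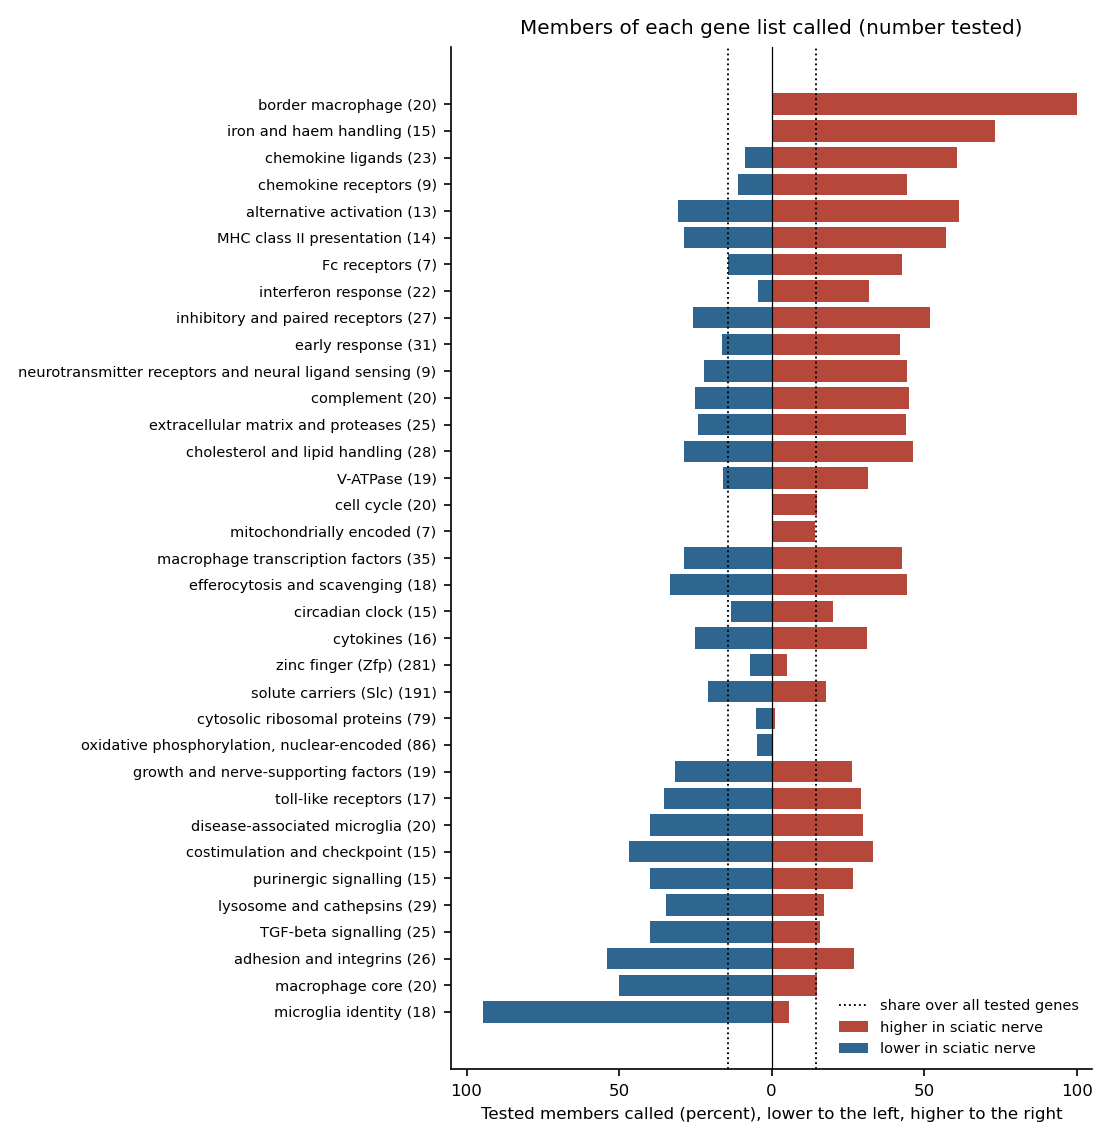
Percent of the tested members of each gene list called higher (red, to the right) or lower (blue, to the left) in sciatic nerve, with the number tested in brackets and dotted lines at the share over all tested genes (14.6% and 14.2%). The border macrophage list reaches 100% higher and the microglia identity list 94.4% lower, and the ribosomal and oxidative phosphorylation families lie below the dotted lines on both sides. The lists were written with earlier results of these data known.

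Some genes were present in 1 nerve and nearly missing in the other. At 10 CPM or more in every sciatic nerve library and under 1 CPM in every optic nerve library were 27 tested genes, and 39 showed the reverse. On the sciatic side were C1qtnf1, a secreted protein of the adiponectin family (61.4, 44.3, 58.5 and 68.8 CPM and 1 count in optic nerve), the orphan receptor gene Gprc5c (67.8, 39.2, 56.6 and 45.5 CPM and 2 counts) and the peptidase gene Enpep (84.6, 55.5, 54.03 and 64.9 CPM and 3 counts). Kmo, an enzyme of tryptophan breakdown, measured 72.9, 63.2, 80.9 and 62.9 against 0, 0.347, 0.0513 and 0 CPM (log2 ratio 9.35, SE 0.53). Pla2g2d, a secreted phospholipase that is not on that list, measured 427, 370.2, 311 and 379 against 1.02, 0.794, 1.28 and 3.69 CPM (log2 ratio 7.79, SE 0.41). On the optic side, the leucine-rich repeat gene Lrrc3 measured 0.353, 0.189, 0.0648 and 0.119 against 146, 159, 183 and 191 CPM (log2 ratio -9.79, SE 0.29). The muscle and brain protease gene Capn3 measured 0.471, 0.189, 0.518 and 0.179 against 195, 208, 235 and 249 CPM (log2 ratio -9.33, SE 0.26). The lipase gene Liph was rarer, at 0.0589, 0.189, 0.0648 and 0.119 against 52.03, 61.1, 75.2 and 85.4 CPM (log2 ratio -9.22, SE 0.34). The protease inhibitor gene Spint1 measured 0.118, 0.252, 0.130 and 0.358 against 87.9, 105, 102 and 97.04 CPM (log2 ratio -8.78, SE 0.27), with the least spread of these 4 genes between optic nerve libraries.

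Serpine2, a protease inhibitor that guards neurites, was abundant in optic nerve and scarce in sciatic nerve, at 1.94, 1.07, 3.43 and 6.62 against 695, 698, 747 and 595 CPM (log2 ratio -7.70, SE 0.44). The lipid flippase gene Atp8a2 was lower too (0.513 ± 0.480 against 91.03 ± 14.1 CPM, log2 ratio -7.46, SE 0.43). So was Ecscr, a surface protein known from endothelium (0.723 ± 0.670 against 125 ± 12.1 CPM, log2 ratio -7.44, SE 0.44). The protease gene Klk8, neuropsin, measured 0.878 ± 0.378 against 114 ± 12.2 CPM (log2 ratio -7.01, SE 0.27). Serpine2, Atp8a2 and Ecscr were uneven among the sciatic nerve libraries, where all were low. With 0 counts in optic nerve, besides Ppbp and Cd209e, stood Cyp2j6 (7.59, 8.39, 10.3 and 16.3 CPM in sciatic nerve, at least 282-fold higher), Dmpk (6.78 ± 1.91 CPM, at least 179.8-fold), Hs3st3a1 (5.51 ± 2.76 CPM, at least 146-fold) and Lmo1 (5.09 ± 2.41 CPM, at least 135-fold). With 0 counts in sciatic nerve stood the galactosyltransferase gene B3galt5 (13.3, 3.97, 7.95 and 10.96 CPM in optic nerve, at least 196-fold lower), the small heat shock gene Hspb3 (8.54 ± 1.55 CPM, at least 185-fold) and Eva1a (6.68 ± 3.40 CPM, at least 145-fold). The CD30 ligand gene Tnfsf8 (5.62 ± 3.75 CPM, at least 122-fold), Bend5 (4.94 ± 1.28 CPM, at least 107-fold) and Mybph (4.55 ± 0.941 CPM, at least 98.6-fold) followed. These bounds set a mean against 3 counts over the other group.

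Levels were shown to be alike for 907 genes (7.54%), whose 95% interval of the log2 fold change lay within 0.5 of 0. The most abundant of them were Cd83, Fth1, Hspa5, Atf3, Sqstm1, Grn, H3f3b and Ctsh. The chaperone gene Hspa5 measured 4068 ± 540.5 against 4672 ± 526 CPM (95% interval -0.48 to 0.08) and the autophagy receptor gene Sqstm1 2165 ± 323 against 2251 ± 418 CPM (95% interval -0.40 to 0.28). The histone gene H3f3b measured 1963 ± 122 against 2279 ± 179 CPM (95% interval -0.44 to 0.01) and the protease gene Ctsh 1914 ± 200.1 against 2051 ± 224 CPM (95% interval -0.36 to 0.16). For the stress factor gene Atf3 the interval was -0.22 to 0.37. Of these 8, Atf3 and Ctsh were alike under every alternative tried, and the other 6 missed the margin under at least 1. A gene that was not called and not alike is undecided at this spread, which was 39.4% of the level between sciatic nerve libraries and 40.7% between optic nerve libraries beyond counting error.

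Among genes at 50 CPM or more, the long noncoding RNA Malat1 varied most between sciatic nerve libraries, at 2316, 4138, 2412 and 1021 against 1789, 1507, 537 and 1359 CPM, and was among the 6 most variable in optic nerve as well. Trim30c (48.7, 69.5, 92.5 and 26.2 CPM) and Asph, a hydroxylase gene (31.4, 74.6, 57.1 and 99.7 CPM against 331, 297, 319.7 and 313 CPM, log2 ratio -2.26, SE 0.28), also varied in sciatic nerve, with Samd9l, Tlr4 and Plxnb2. Samd9l measured 29.4, 40.8, 118 and 31.5 CPM and Plxnb2 64.3, 45.4, 146 and 55.4 CPM there. In optic nerve the most variable were Tnfsf9, Xist, Malat1, Pltp, Dusp6 and C4b. Xist, the RNA of X inactivation, measured 82.8, 169, 104 and 60.1 against 112, 97.1, 33.3 and 87.2 CPM, and the Y-linked genes Ddx3y, Eif2s3y, Kdm5d and Uty averaged at most 0.0618 CPM in either nerve. The phosphatase gene Dusp6 measured 79.7, 77.7, 68.6 and 94.1 against 93.4, 99.2, 57.5 and 181 CPM, with replicate 4 on top in optic nerve, and the complement gene C4b 203, 143, 305 and 205 against 65.8, 38.3, 57.02 and 119.8 CPM. Of these, Tnfsf9, Pltp and C4b were still called higher in sciatic nerve (log2 ratio 1.61, SE 0.33 for C4b), and Malat1, Xist and Dusp6 were not called.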

How the data were processed

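RNA was sequenced in bulk from 4 sciatic nerve and 4 optic nerve macrophage samples. The authors deposited raw counts per gene, made with STAR and featureCounts 1.5.1 on mm10 per the submitters' processing notes. The STAR version, annotation and strand setting: not given in the sources used here, and 5 other columns of the table were not used. Members and gene lists were chosen with earlier results of these data known. Genes that passed filterByExpr (12025 of 48587 symbols) were tested with edgeR 4.0.16 (limma 3.58.1, R 4.3.3) by the quasi-likelihood test on tissue with TMM scaling, and p-values were adjusted by Benjamini-Hochberg over all genes tested. Genes were called at an adjusted p under 0.05, SE is the fold change over the root of F, and a level was alike where the 95% interval lay within 0.5 of 0 in log2. CPM were computed from TMM-scaled totals, so values below counting error, 3 counts in a group, are not detectable. Coordinates and exon lengths come from GENCODE vM21 (GRCm38), in which 46372 symbols matched 1 gene, and promoters from RefSeq (GRCm38.p6), in which 8919 of the 12025 tested genes were found.

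Named are the 15 called genes in each direction with the largest fold change, separate libraries and at least 50 CPM, the 8 most abundant called genes at least 2-fold apart in each direction, the leading called and not called members of each list, the 8 most abundant alike genes, the 6 most abundant genes with 0 counts in the other nerve and the 6 most variable genes of each nerve at 50 CPM or more. Genes of the clusters, overlapping genes and further list members were named after their values were seen. Predicted and clone-named genes were not named. Some genes are not reported here. The alternatives were RLE, upper-quartile and total-count scaling, no filter, a filter of 1 CPM in 4 libraries, DESeq2 1.42.0, the replicate number as a block and each library left out.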

Additional observations from a re-analysis of the deposited data

Results flagged for a closer look

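In 48 of 659 groups of 4 libraries tested (7.28%, where about 1 in 20 is reached by chance), 1 library of a nerve stood far from the other 3 in the CPM of a named gene whose highest library reached 1 CPM: its gap to the nearest, as a share of the whole range, was above Dixon's 95% critical value. Optic nerve replicate 4 was that library for 14 genes, sciatic nerve replicate 1 for 8 and optic nerve replicate 3 for 7. The range of the other 3 libraries is given in brackets. No explanation was tested.

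Optic nerve replicate 4 was the highest for Adamts1 249 CPM (171 to 176), Adgre5 45.6 CPM (17.4 to 20.4), Cd4 1.74 CPM (0 to 0.103), Fos 1872 CPM (1035 to 1177), H2-Ab1 299.8 CPM (192 to 206), Lrp1 139 CPM (74.6 to 84.0), Pla2g2d 3.69 CPM (0.794 to 1.28), Slc11a1 514 CPM (424 to 439) and Stab1 82.7 CPM (44.4 to 48.96). It was the lowest for Ccl2 424 CPM (683 to 701), Cd9 1380.5 CPM (1808 to 1859.7), Ecscr 107 CPM (129 to 132), Havcr2 268 CPM (289.6 to 294) and Nr1d2 10.3 CPM (19.2 to 20.1). Sciatic nerve replicate 1 was the highest for Ciita 37.3 CPM (19.8 to 20.99), Ctsa 1589 CPM (1361 to 1374), Grn 2294 CPM (1921 to 1982), Lipa 468 CPM (425 to 428), Myc 47.6 CPM (37.3 to 37.7) and Psmb8 246 CPM (204 to 207). It was the lowest for Cd4 6.24 CPM (11.6 to 12.4) and Il1a 1484 CPM (2002 to 2020.2). Optic nerve replicate 3 was the highest for C1qc 8629 CPM (6398 to 6516), C5ar1 1368 CPM (1189.5 to 1215), Cxcl12 2.26 CPM (0 to 0.326), Irf8 905 CPM (651 to 689), Tap1 205 CPM (126 to 138) and Zbtb46 20.4 CPM (8.23 to 9.13). It was the lowest for Scd2 17.3 CPM (25.9 to 27.0). Optic nerve replicate 2 was the highest for Arg1 1.34 CPM (0 to 0), Ly6c2 2.83 CPM (0 to 0.0466) and Maoa 9.62 CPM (7.03 to 7.33). It was the lowest for Lyz2 3109.7 CPM (3955 to 4024) and Tlr3 25.3 CPM (46.9 to 49.99). Sciatic nerve replicate 3 was the highest for Itgb3 1.23 CPM (0 to 0.119) and Samd9l 118 CPM (29.4 to 40.8). It was the lowest for Cd63 359 CPM (477 to 498), Ifi30 68.5 CPM (87.1 to 90.2) and Lpl 249 CPM (499 to 536). Optic nerve replicate 1 was the highest for Ednrb 8.85 CPM (1.36 to 2.53), Gja1 6.85 CPM (0 to 0.923) and P2ry14 1.35 CPM (0.0513 to 0.0992). It was the lowest for Cd44 31.3 CPM (42.0 to 43.6). Sciatic nerve replicate 4 was the highest for Ccl24 1310.1 CPM (980.5 to 1029.7), Cd209d 532 CPM (455 to 463) and Egr2 780.1 CPM (530.3 to 564). Sciatic nerve replicate 2 was the highest for Maoa 139.8 CPM (110.5 to 113) and Socs2 1.70 CPM (0.596 to 0.765).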

How the results depend on the processing

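The labels do not say whether libraries of the same replicate number share an animal or a preparation. Deviations from the nerve means correlated at -0.0682, 0.0420, -0.0861 and -0.0712 between libraries of the same number, and only the replicates numbered 2 correlated best with each other. Such deviations cancel within a nerve, so these correlations cannot decide whether samples were paired. With the replicate block 1455 genes were called higher and 1385 lower, 1095 and 940 of them at least 2-fold, and 575 were alike. Fewer residual degrees of freedom are part of that alternative's construction. With 1 library left out, 1546 to 1694 genes were called higher, 1386 to 1608 lower, 1086 to 1246 at least 2-fold higher, 918 to 1042 at least 2-fold lower, and 606 to 762 were alike. DESeq2 called 2050 higher and 1843 lower. Total counts called 1409 higher and 2304 lower (37.9% of the calls higher, against 50.8%), and RLE scaling 1818 and 1606.

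No named gene that was called changed direction under any of the 15 alternatives, and 5 of them lost the call in at least 1: Fcrls, Samd9l, Plxnb2, Gja1 and Aldoc. Of 35 named genes that were alike, 23 missed the margin under at least 1 alternative, and 13 named genes that were not called were called under at least 1. Direction changed for genes near 0 that were not called. With total counts the log2 fold changes of Isg15, Lrp1, Nr1d2, Tlr7 and Top2a were -0.076, -0.132, -0.060, -0.134 and -0.145. With 1 library left out, Cxcl10 ranged from -0.240 to 0.052, Hspa1a from -0.317 to 0.011, Isg15 from -0.092 to 0.280, Lrp1 from -0.059 to 0.293, Nr1d2 from -0.270 to 0.237, Tlr7 from -0.139 to 0.179 and Top2a from -0.200 to 0.234. The cause was not tested. Per list, 1361 of 1440 counts under alternatives stayed within 1.5 times.

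With 4 libraries a nerve and a spread of 39.4% to 40.7%, differences of genes under 1 CPM were rarely called. Age, sex, cell isolation and date are missing from the sources used here, so a difference of handling and a difference between the nerves cannot be told apart. Markers of fibroblasts, glia and other cells moved with the nerve. Overlapping genes and near-identical copies can share reads.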
